A study of Mus musculus with 4 samples.

Results

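The intercalated disc is the junction that holds heart muscle cells together end to end. The 10 genes described here are the disc and desmosome genes Dsp, Pkp2, Jup, Dsg2, Dsc2, Cdh2, Ctnna1, Ctnna3 and Tjp1, and Tmem43, which encodes a nuclear membrane protein. They were chosen by name, with earlier results of these data known. They are 10 of the 21670 protein-coding genes considered (those on chromosome Y and in the mitochondrion were left out). For each gene, peaks and joined peaks were read within 1000 bp of each annotated start of a coding transcript, called the promoter here. Trimethylation of histone H3 at lysine 4 (H3K4me3), a chromatin mark of active gene starts, was profiled with chromatin immunoprecipitation and sequencing in whole heart of female B6CASTF1/J mice aged 2 months, with no treatment named in the labels. The 4 libraries came from pools G and H (biological replicates 1 and 2), each pool made from 2 heart biosamples and sequenced as 2 technical replicates. All 4 labels carry 1 donor record and do not say whether the pools came from separate animals, and spread between the pools may be technical. The 4 peak lists on build mm10 comprised a list for each pool and 2 lists of both pools, named replicated (the main list) and pseudoreplicated. No expression data were used, and a bulk peak cannot tell the share of cells that carry the mark from its amount per cell.

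Desmosomes join the intermediate filaments of neighbouring cells: the cadherins Dsg2 and Dsc2 cross the gap between the membranes, Jup (plakoglobin) and Pkp2 (plakophilin) bind their tails, and Dsp (desmoplakin) ties the plaque to desmin. Adherens junctions join actin instead, through N-cadherin (Cdh2) and the catenins Ctnna1 (alpha-E) and Ctnna3 (alpha-T). In cardiomyocytes these junctions mix in the intercalated disc, where the scaffold Tjp1 (ZO-1) also borders the gap junctions. Inherited changes in desmosomal genes, and in the gene for the inner nuclear membrane protein Tmem43, are known to cause arrhythmogenic cardiomyopathy in people.

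All 10 genes had a promoter peak in all 4 lists, against 61.1% of all protein-coding genes. In the replicated list alone the background was 63.0%, in pool G 63.4%, in pool H 61.3% and in the pseudoreplicated list 63.4%. Peak height was close to that of other marked genes, above their median in the replicated list and below it in each pool. The signal value of a peak is the authors' own, is read here as fold enrichment over a control, and is compared only within a list. The median over the 10 genes was 17.2 in the replicated list, beside 15.3 over all marked genes, and 6 of the 10 lay above that background. In pool G the median was 17.2 beside 18.2, and in pool H 11.9 beside 12.9. Width differed more: the median domain, meaning peaks joined across gaps of up to 1000 bp, was 3279.5 bp beside 1799 bp in the replicated list. It was 3542 bp beside 1892 bp in the pool G list. In the pool H list it was 3238.5 bp beside 1680 bp. Height is that of a gene's highest promoter peak and width that of its widest promoter domain. These can lie at different starts, as at Ctnna3. In each list 9 of the 10 genes were wider than the background median, with Dsc2 the exception. That background mixes promoters of high and low CpG content, whose widths are given separately below.

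The order of heights was the same at both ends. Jup ranked first and Ctnna1 second in all 4 lists, and Dsc2 came last in all of them. These are not 4 separate readings: the 2 lists of both pools gave the same height for all 10 genes and draw on the same 2 pools. In pool G Dsg2 and Dsc2 were nearly equal, at 11.39 and 11.36 fold. Over the pools the heights of Jup and Ctnna1 overlapped, as did those of Dsg2 and Dsc2. Values in pool G were higher in general, with a median ratio of G to H of 1.42 over all genes marked in both. Within each list Jup stood above Ctnna1 and Dsg2 above Dsc2. The middle order did not hold: Tmem43 ranked 3 in the replicated list and in pool H but 6 in pool G, and Pkp2 ranked 3 in pool G but 6 in the others. Tjp1, Pkp2 and Ctnna3 stood between 17.1 and 18.6 in the replicated list and changed order between the pools, so they cannot be ranked against each other. Below them Cdh2 stood above Dsp in all 4 lists, while Dsg2 ranked 9 in pool G and in the lists of both pools but 7 in pool H.

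**Figure D1:**
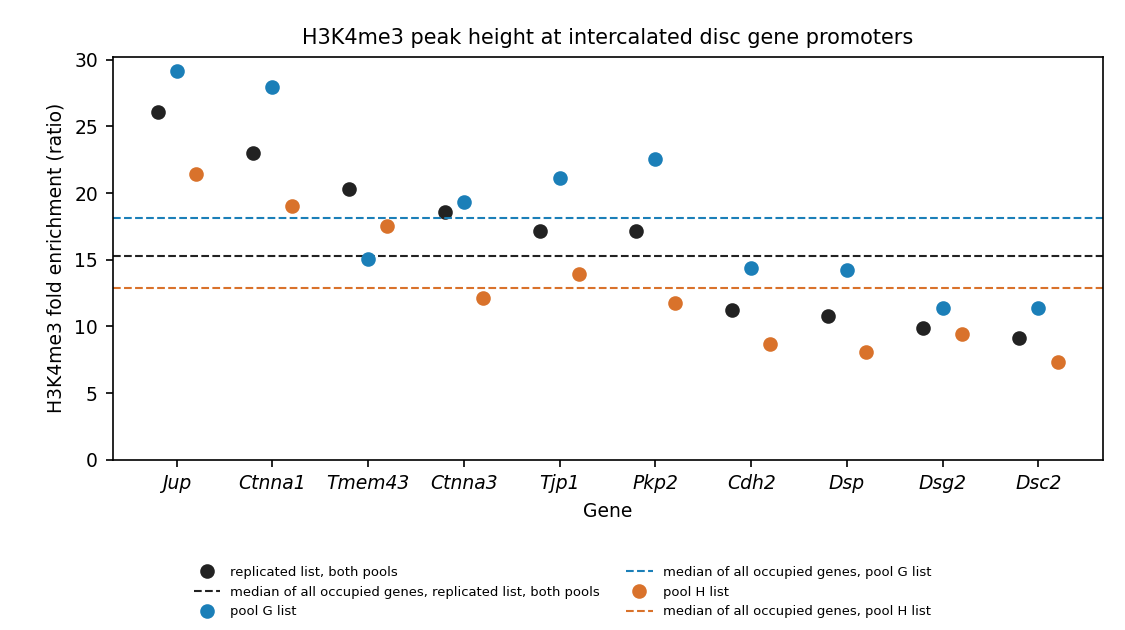
Fold enrichment (ratio) of the highest promoter peak of each of the 10 genes in the replicated list, pool G and pool H, with the median of all marked genes in each list. Jup and Ctnna1 lead in each list and Dsc2 is lowest; Tmem43 is the gene higher in pool H than in pool G.

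Of the plaque genes, Jup carried the highest peak of the 10. Its fold enrichment was 26.1 in the replicated list, 29.1 in pool G and 21.4 in pool H. At 26.1 it stood at the percentile of 99.2 among marked genes, with 97.5 in pool G and 98.3 in pool H. The peak, chr11:100393241-100397841, began 92 bp upstream of the start and ran 4508 bp into the 28806 bp gene, with its summit in an intron 321 bp past the start. The Jup domain measured 4601 bp in the replicated list, and the pools gave 5644 bp (G) and 4600 bp (H), or 5122 bp ± 738.2 (SD, n = 2 pools). In pool H it was made of 3 peaks and in pool G of 2. The pseudoreplicated list added small intronic peaks that joined 7 peaks to a domain of 10304 bp.

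Pkp2 had 1 peak in every list, of 17.1 fold in the replicated list, 22.5 in pool G and 11.8 in pool H. The peak, chr16:16212901-16217287, extended 417 bp upstream and 3969 bp downstream of its single coding start, and the summit lay in coding sequence, 244 bp past that start. At 4387 bp it fell just short of the 4431 bp that bounds the widest 5% of promoter domains. The pool widths were 4599 and 3754 bp (4176.5 bp ± 597.5, SD, n = 2).

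Dsp, the plaque protein that binds the filaments, was lower, at 10.8 fold in the replicated list, 14.2 in pool G and 8.10 in pool H. Its peak, chr13:38150808-38153748, reached 486 bp upstream and 2454 bp downstream of the first start. The Dsp domain of 2941 bp (3146.5 bp ± 481.5 over the pools, SD, n = 2) stood at the percentile of 84.1 among marked genes, while its height was at the percentile of 26.0. The domain also holds the start of Gm10129, a gene model on the opposite strand, and the mark has no strand.

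The desmosomal cadherins carried the lowest peaks in the replicated and pool G lists, while in pool H Dsc2 was lowest and Dsg2 stood above Cdh2 and Dsp. Dsg2 reached 9.87 fold in the replicated list, 11.4 in pool G and 9.45 in pool H, and Dsc2 reached 9.14, 11.4 and 7.33. Their domains were also the narrowest of the 10, with Dsg2 at 1859 bp and Dsc2 at 1320 bp in the replicated list. Dsg2 still exceeded the background median of 1799 bp. Over the pools the widths were 1843 bp ± 149.9 at Dsg2 and 1193 bp ± 132.9 at Dsc2 (SD, n = 2). The Dsg2 peak, chr18:20557617-20559475, had its summit 107 bp past the first start, in the UTR. The Dsc2 peak, chr18:20058424-20059743, had its summit 421 bp past the first start, in an intron. All 3 coding starts of Dsg2 were marked, and of the 3 coding starts of Dsc2, the one 21415 bp downstream of the first was not marked.

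Dsg2 and Dsc2 lie at or near the ends of a cluster of 9 desmosomal cadherin genes on chromosome 18. Between bases 19960930 and 20604521, a span of 643.592 kb, only these 2 genes had a promoter peak, in every list. Dsc3, Dsc1, Dsg1c, Dsg1a, Dsg1b, Dsg4 and Dsg3, best known from skin and other stratified epithelia, had 0 promoter peaks in all 4 lists. The span held 3 peaks in the replicated list, those at Dsc2 and Dsg2 and a 463 bp peak of 3.26 fold that lay 4627 bp upstream of Dsg2. That small peak was 4.17 fold in pool G and was not in pool H's list. The observed over expected CpG ratio was 0.605 at Dsg2 and 0.407 at Dsc2, above all 7 unmarked genes, of which Dsc3 came close to Dsc2 at 0.395. The part of CpG content in the marking was not tested. The other 6 genes ranged from 0.117 to 0.208.

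**Figure D2:**
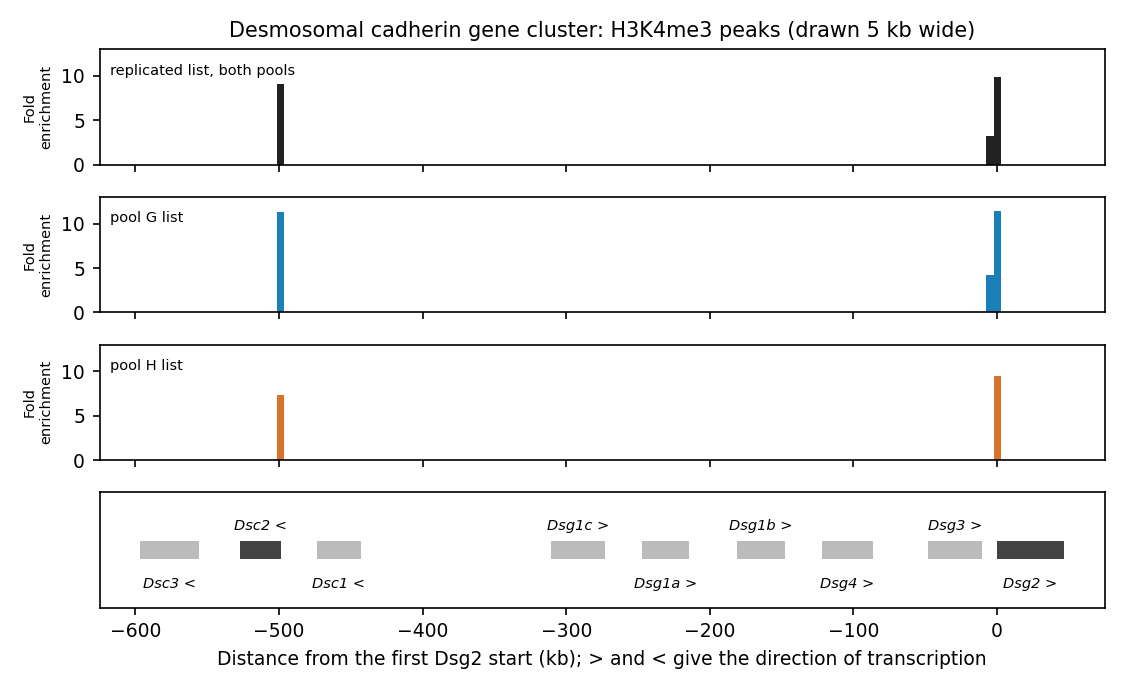
Desmosomal cadherin genes on chromosome 18 by distance from the Dsg2 start (kb, horizontal axis), with the peaks of the replicated, pool G and pool H lists above. Only Dsc2 and Dsg2 carry promoter peaks, and the small peak left of Dsg2 is drawn in the replicated and pool G lists but not in pool H. Peaks are drawn 5 kb wide, heights are fold enrichment, and dark boxes are the marked genes.

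Among the adherens junction genes Ctnna1, the widely expressed alpha-catenin, was second to Jup. Its peak reached 23.0 fold in the replicated list, 27.9 in pool G and 19.0 in pool H, at percentiles of 93.7, 95.6 and 92.2. Its width varied little between the pools, at 3597 and 3671 bp (3634 bp ± 52.3, SD, n = 2). The peak, chr18:35117982-35121599, reached 877 bp upstream and 2740 bp downstream of the first start and covered 3 of the 5 annotated coding starts of Ctnna1. The other 2, inside the gene, had no peak within 1000 bp. They sit 52 to 78 bp from the start of Lrrtm2, a synaptic adhesion gene, which also had 0 peaks.

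Cdh2 combined modest height with the widest domain of the 10 genes in the replicated list. Its fold enrichment was 11.3 in the replicated list, 14.4 in pool G and 8.68 in pool H, below the background median in each list, while its domain was 5486, 5528 and 4520 bp wide. In the replicated list a peak of 967 bp, mostly upstream (11.3 fold), and a peak of 4406 bp inside the gene (10.7 fold) were separated by 113 bp next to the start. Pool H had a single peak of 4520 bp there. The pool widths average 5024 bp ± 712.8 (SD, n = 2). A second coding start of Cdh2, 139177 bp into the gene, was not marked. With no joining of peaks the Cdh2 width is 4406 bp.

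Ctnna3, the alpha-catenin best known from heart and testis, is the longest gene here, at 1573570 bp, and had separate peaks at 2 of its 3 coding starts. The first start, at 63430098 on chromosome 10, carried a peak of 18.6 fold in the replicated list, 19.4 in pool G and 12.1 in pool H. It reached 1607 bp upstream and 468 bp downstream. The second start lies 27412 bp downstream, with a peak of 7.86 fold in the replicated list, 9.17 in pool G and 7.49 in pool H. The peak at the second start was the wider one, at 2471 bp against 2076 bp in the replicated list, and gave the domain width of Ctnna3. The third coding start, 73939 bp from the first, was not marked. When only the longest transcript is used, Ctnna3's value becomes the 7.86 of the second start.

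The Ctnna3 promoters, and that of Jup, show how the sequence varies under these peaks. Each line gives the bases before a start in RefSeq's promoter table for GRCm38.p6 (C57BL/6J reference, whereas the mice are B6CASTF1/J hybrids), 5′ to 3′ on the gene's strand, with CpG pairs in capitals. The Ctnna3 lines are chr10:63429848-63430097, chr10:63457261-63457509 and chr10:63820805-63821054 on the plus strand. The Jup line is chr11:100397791-100398040 on the minus strand.
Ctnna3 start 1: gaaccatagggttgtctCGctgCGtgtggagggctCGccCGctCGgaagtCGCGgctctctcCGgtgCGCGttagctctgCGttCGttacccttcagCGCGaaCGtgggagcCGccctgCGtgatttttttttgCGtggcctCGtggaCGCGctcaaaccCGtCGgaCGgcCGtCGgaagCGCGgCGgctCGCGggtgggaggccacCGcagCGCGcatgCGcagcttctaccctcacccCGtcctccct
Ctnna3 start 2: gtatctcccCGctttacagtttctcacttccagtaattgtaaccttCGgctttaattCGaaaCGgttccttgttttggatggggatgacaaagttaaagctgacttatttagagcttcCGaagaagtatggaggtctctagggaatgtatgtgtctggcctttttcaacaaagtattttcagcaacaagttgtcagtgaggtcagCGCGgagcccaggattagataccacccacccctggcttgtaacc
Ctnna3 unmarked start: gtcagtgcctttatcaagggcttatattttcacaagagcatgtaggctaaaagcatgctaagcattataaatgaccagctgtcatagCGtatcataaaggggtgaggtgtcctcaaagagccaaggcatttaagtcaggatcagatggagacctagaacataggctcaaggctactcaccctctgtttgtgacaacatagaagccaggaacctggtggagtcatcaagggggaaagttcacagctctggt
Jup: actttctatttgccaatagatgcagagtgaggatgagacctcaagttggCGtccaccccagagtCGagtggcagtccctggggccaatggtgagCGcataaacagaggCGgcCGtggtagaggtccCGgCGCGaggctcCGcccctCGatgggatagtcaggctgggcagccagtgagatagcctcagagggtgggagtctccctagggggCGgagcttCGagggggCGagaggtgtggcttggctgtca
The Ctnna3 stretches held 36, 7 and 1 CpG pairs, and the peaks there were 18.6 fold, 7.86 fold and none. The last is the start of a RefSeq promoter entry that matches a non-coding transcript of Ctnna3, and it is printed as the unmarked comparison. Across 32851 promoters of the table the median was 6 CpG pairs, with a middle range of 2 to 16. Jup held 13, and only 51 of its 250 bases (20.4%) lay inside its peak, so most of the Jup mark is past the start.

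The table matched 5 of the 10 genes, Ctnna3, Dsp, Jup, Tjp1 and Tmem43, over 7 promoters. Dsp and Tjp1 each had 22 CpG pairs in 250 bases. GGGCGG, the core of a GC box, searched on both strands in the 250 bases before the start, was found 4 times at Dsp, 2 times at Jup, 2 times at Tjp1, and once each at Tmem43, outside the stretch printed for that gene, and at the first Ctnna3 start. This motif is in 32.7% of all promoters in the table. CATTCC, the letters bound by TEAD factors, was found once, at base -109 before the second Ctnna3 start, and is in 12.6% of promoters. TATAAA was found at the unmarked Ctnna3 start and is in 12.4% of promoters. The GATA letters AGATAA are in 9.99% of promoters, the E-box CACGTG is in 6.02%, the NK2 letters AAGTGG are in 14.1% and the MEF2 motif is in 0.508%. No match to these was found in the 7 promoters. A match is only a run of letters, and the absence of one says nothing about a factor.

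Tjp1, the scaffold of tight junctions and of the disc, reached 17.2 fold in the replicated list, 21.1 in pool G and 13.9 in pool H, and the peak of that height lay at internal starts, chr7:65367076-65371973. The start furthest upstream, 156457 bp away, had a peak of 4.42 fold in the replicated list, 5.68 in pool G and 4.05 in pool H. The CpG ratios at these starts, 0.905 and 0.898 against 0.875 upstream, differed little. The Tjp1 domain was 4898, 4971 and 4010 bp wide in the replicated, G and H lists (4490.5 bp ± 679.5 over the pools, SD, n = 2). A start of another gene model, Gm44794, lay within 1000 bp of this domain in all 4 lists.

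Tmem43 shares its promoter with Chchd4, a mitochondrial import gene whose start is 157 bp away on the opposite strand, so its peak cannot be assigned to either gene. The 156 bases between the exons, chr6:91473547-91473702 on the plus strand, hold 11 CpG pairs and lie wholly in the peak:
Tmem43: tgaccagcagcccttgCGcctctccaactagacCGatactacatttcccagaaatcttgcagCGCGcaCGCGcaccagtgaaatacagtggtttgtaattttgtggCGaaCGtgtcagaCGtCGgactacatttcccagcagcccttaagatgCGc
Tmem43 was the gene of the 10 whose percentile moved most between the pools. Its peak was 20.3 fold in the replicated list, 15.1 in pool G and 17.6 in pool H. The replicated value was above both pools' values, as for 4.44% of 13244 genes marked in these 3 lists. It was also the only member of higher fold enrichment in pool H than in pool G, as 3.93% of 13245 genes are. The significance of its peak went the other way, with a −log10 q of 115.2 in pool G and 90.3 in pool H. The percentile of its fold enrichment was 34.7 in pool G and 85.4 in pool H, and 0.898% of genes had a gap at least as large. The summit lay 155 bp downstream of the Tmem43 start in pool G, but at -410 bp from it in pool H, which is 253 bp past the Chchd4 start. The pools placed the top of this peak on opposite sides of the shared promoter. The pool widths were 2414 and 2145 bp (2279.5 bp ± 190.2, SD, n = 2).

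Domain width put 3 of the 10 genes, Jup, Cdh2 and Tjp1, in the widest 5% in all 4 lists. Of all marked genes, 5.18% were there in the replicated list, 5.18% in pool G, 5.08% in pool H and 5.15% in the pseudoreplicated list. Such domains are not particular to these genes: other disc genes and heart cell markers also had them, as given below. Among neighbours by mean pool width, pool ranges overlapped between Jup and Cdh2, Cdh2 and Tjp1, Tjp1 and Pkp2, and Ctnna3 and Tmem43. The other neighbouring pairs did not overlap. Compared within each list, Cdh2 was wider than Tjp1, and Tjp1 wider than Pkp2, in all 4 lists. The place of Jup against Cdh2 and Tjp1 changed between lists, as did the order of Ctnna3 and Tmem43, so these are not resolved. The count in the widest 5% depended on how peaks were joined: it was 5 of the 10 with no gap bridged and 1 with gaps of up to 3000 bp bridged. It was 4 with only peaks of −log10 q of at least 5, and 4 with the longest transcript only. Dsc2 had the smallest width in every list and Dsg2 the next smallest. All but Ctnna1 were wider in pool G than in pool H. The median ratio of G to H widths was 1.22 over the 10 genes, beside 1.13 over all genes marked in both pools.

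**Figure D3:**
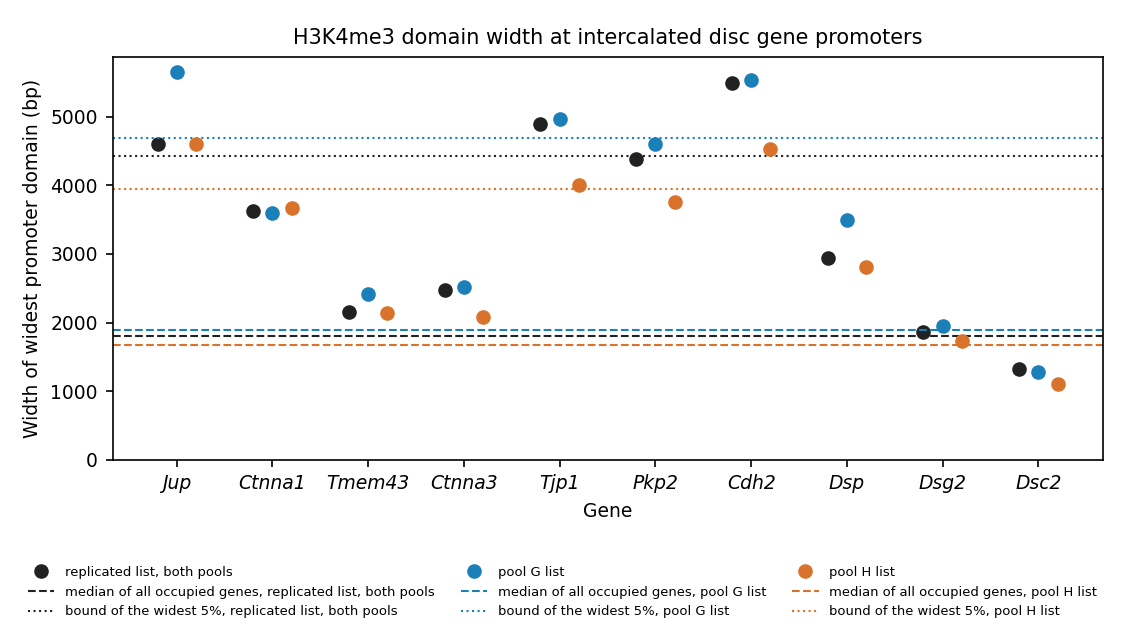
Width (bp) of the widest promoter domain of each gene in the replicated list, pool G and pool H, with the median of all marked genes and the bound of the widest 5%. Cdh2, Tjp1 and Jup exceed the bound, and Dsc2 lies below the median.

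The highest peak of each of the 10 genes covered a start of that gene, as for 90.7% of marked genes. Measured in the replicated list, 7 of the 10 reached further downstream than upstream, against 83.7% of the 12386 marked genes whose highest peak covers a start. The exceptions were Cdh2, Ctnna3 and Tmem43. For Cdh2 only the higher peak of 967 bp was counted, with 946 bp upstream and 20 bp downstream. Its 4406 bp peak inside the gene was left out, and in pool H the single Cdh2 peak reached further downstream. The median reach was 1927.5 bp downstream and 610 bp upstream, beside 1067 and 506 bp over those 12386 genes.

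**Figure D4:**
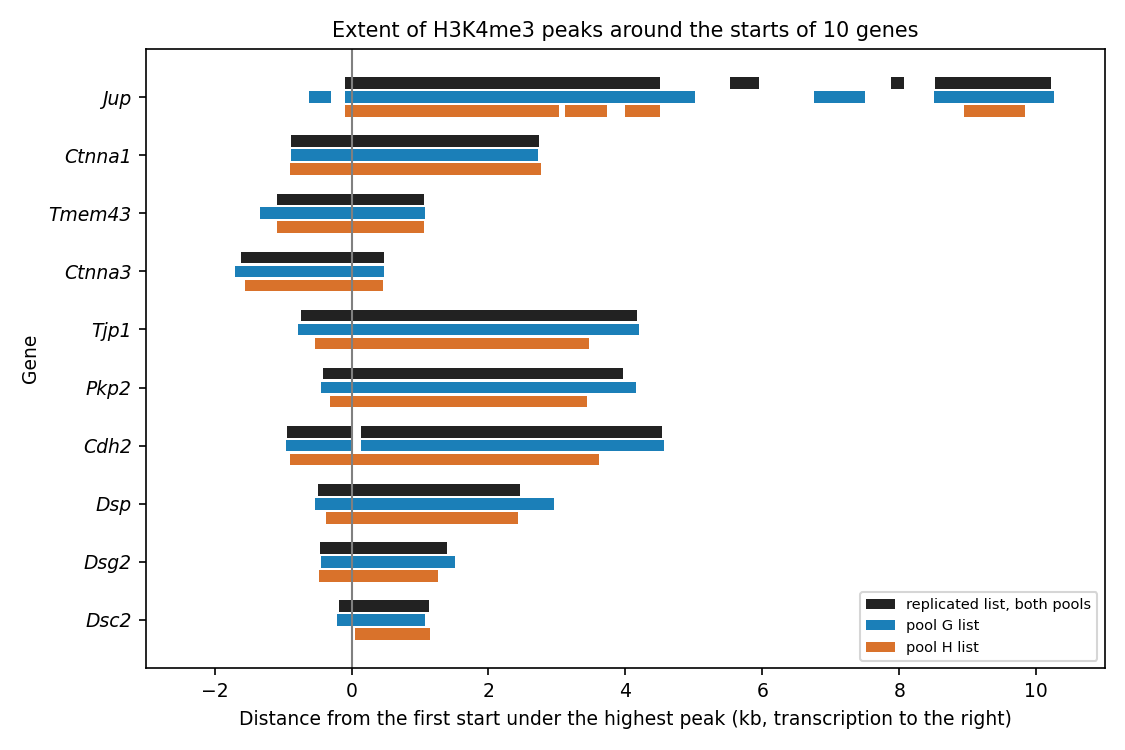
Extent of the peaks of the 10 genes in the replicated, pool G and pool H lists by distance from a start (kb, horizontal axis, transcription to the right). Pkp2, Tjp1 and Jup reach 3969, 4163 and 4508 bp downstream in the replicated list, and Ctnna3 extends mostly upstream.

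A high-CpG promoter was found at 7 of the 10 genes, all but Jup, Dsc2 and Ctnna3, against 33.7% of all genes and 51.6% of marked ones. High-CpG means a CpG ratio (observed over expected) no lower than 0.6, with GC making up no less than 0.5 of the bases, within 1000 bp of a start. With a bound of 0.7 for the ratio, 4 of the 10 were high-CpG. With a bound of 0.5, 8 of the 10 were, Jup being the addition. Of all high-CpG genes 96.7% were marked, and of the others 46.0%. The median domain width in the replicated list was 2120 bp over marked high-CpG genes and 1471.5 bp over marked low-CpG genes. Against its own class Dsg2, at 1859 bp, stood at the width percentile of 35.4 and Dsc2 at 38.4. Tmem43 was next at 51.6, and the rest stood at 78.5 or above. Among the 6606 marked low-CpG genes, 37 had a higher peak than Jup, which is in that class at the bound of 0.6 but not at 0.5. Among the marked high-CpG genes, Dsg2, Dsp and Cdh2 stood at height percentiles of 13.4, 15.9 and 17.6 in the replicated list. Pkp2 and Tjp1 stood at 52.7 and 53.0, Tmem43 at 75.9 and Ctnna1 at 91.2. The first Ctnna3 start had a ratio of 0.848 and missed the class by its GC share of 49.2%, while Jup had 0.518 and Dsc2 0.407. Of the 24 coding starts of the 10 genes, 19 were marked, against 59.7% of starts overall. The unmarked ones were 2 of Ctnna1 and 1 each of Cdh2, Dsc2 and Ctnna3. Their CpG ratios ran from 0.140 to 0.363, while the marked starts ran from 0.352, at the second Ctnna3 start, to 0.905 at Tjp1.

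**Figure D5:**
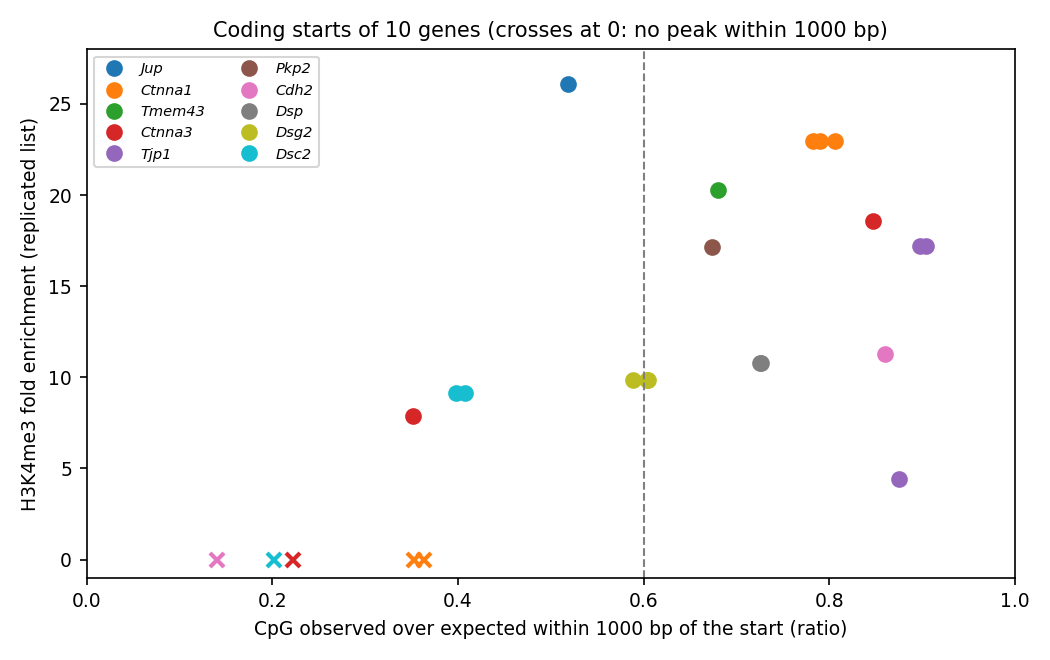
Observed over expected CpG ratio (horizontal axis) and fold enrichment in the replicated list (vertical axis) at each coding start of the 10 genes, with unmarked starts as crosses at 0 and a dashed line at a ratio of 0.6. Marked starts left of the line are those of Jup, Dsc2, the second of Ctnna3 and one of Dsg2 at 0.589.

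Fold enrichment was higher in pool G for 9 of the 10 genes. The ratio of G to H ran from 0.859 at Tmem43 to 1.92 at Pkp2, with a median of 1.53, beside 1.42 over all genes marked in both pools. The lists were made separately, so a ratio of their values is a description. Pkp2 fell from the percentile of 75.5 in pool G to 41.5 in pool H, a gap that 4.19% of genes reach.

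Peaks inside the genes but more than 1000 bp from any coding start were present at 4 of the 10, Jup, Cdh2, Ctnna3 and Tjp1, against 16.6% of all genes. The share of all genes was 16.8% in pool G, 12.6% in pool H and 17.8% in the pseudoreplicated list, where Dsp was added and 5 of the 10 had such a peak. Jup had an intronic peak of 4.72 fold at chr11:100387538-100389224, with overlapping peaks in pools G and H. It lies 8525 bp from the coding start and, in the replicated and pool G lists, within 1000 bp of starts of non-coding Jup transcripts. Ctnna3 had one of 5.09 fold at chr10:63886208-63887122, which was 6.66 fold in pool G and 3.66 in pool H and lay 382171 bp from the nearest coding start. Tjp1's largest was 3.61 fold, with 3.51 in pool G and 4.14 in pool H. Cdh2's 3 were at or below 3.26 fold in the replicated list, with one of 4.73 fold in pool G. The lists also hold weak peaks: 667 of the 24996 replicated peaks have a q above 0.05. Among them are 2 of the Cdh2 peaks (−log10 q of 0.71 and 0.15), the weakest of Tjp1 (0.32) and the weakest of Ctnna3 (1.11), and the added Dsp peak of the pseudoreplicated list has 1.28. Ctnna3 also had peaks of 3.94 fold at chr10:63480308-63480755, found in both pools, and of 2.88 and 2.34 fold further in. Gene length moved with this: Ctnna3, Tjp1 (231617 bp) and Cdh2 (220370 bp) are the longest of the 10 genes, while Jup, at 28806 bp, is among the shortest. The part of length in the result was not tested.

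Related genes were read for comparison. Of 26 other disc genes 25 were marked, with Tln2 unmarked in the replicated and H lists and 4.44 fold in pool G. Among the higher peaks were those of Gja5 (21.2 fold, in a domain with Gpr89) and Arvcf (18.0, in a domain with Tango2), and the widest domains were Gja1 (7657 bp) and Ctnnb1 (6828 bp). Of 13 desmosome genes of skin and other epithelia, 2 were marked, Perp (10.1 fold) and Ppl (7.84). Only 1 of those 13 has a high-CpG promoter, beside 7 of the 10 genes described here, Tmem43 among them. Of 9 other cadherin and alpha-catenin genes 8 were marked in the replicated list and 6 in pool H, the highest being Cdh13 (14.8 fold), Ctnnal1 (11.9) and Cdh4 (10.8), and the widest Cdh5 (7670 bp). Cdh15 was unmarked in all lists, Ctnna2 (2.98 fold) was absent from both single pool lists, and Cdh1 (4.71 fold) from pool H. Of 12 nuclear envelope genes, which like Tmem43 belong to the nuclear membrane, 12 were marked, led by Lemd3 (24.1 fold), Lmnb1 (21.5) and Tmpo (21.3), with Syne1 widest (3558 bp). Beside the medians of the 10 genes (17.2 fold, 3279.5 bp), the other disc genes had 11.6 fold and 2791 bp, and the nuclear envelope genes 17.7 fold and 2498.5 bp. In the widest 5% of the replicated list were 5 of the other disc genes and 1 of the other cadherin and alpha-catenin genes. Of the nuclear envelope genes and of the epithelial desmosome genes, 0 were. No test was made of these lists.

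As a check on the tissue, promoters of 7 of 7 cardiomyocyte, 5 of 5 endothelial, 4 of 5 fibroblast and 3 of 4 mural markers were marked in the replicated list. In the widest 5% of that list were 5 of the cardiomyocyte, 4 of the endothelial, 1 of the fibroblast and 0 of the mural markers. The median widths of the marked ones were 7655, 5369, 2766.5 and 2845 bp, in that order. Immune markers were marked at 0 of 4 and hepatocyte markers at 0 of 3, and of 3 mesothelial markers Wt1 was marked. Of 6 epithelial markers, Cdh1 and Epcam were marked and Krt5, Krt14, Krt8 and Krt18 were not. Actb was at 20.8 fold, Myh6 at 10.3 and Xist at 12.4, and Alb had 0 peaks.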

How the data were processed

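H3K4me3 was mapped in 4 libraries from 2 pools of mouse heart. The 4 deposited narrowPeak lists, on mm10, held 24996 (replicated), 24826 (pool G), 21505 (pool H) and 26412 (pseudoreplicated) peaks; 24037 of the replicated peaks are identical in the pseudoreplicated list. Both technical replicates of a pool share 1 alignment. Peak caller, version and threshold are not given in the sources used here, and read depth is unknown. Each peak's deposited signal value was taken as the authors' ratio, fold enrichment over a control. This is an assumption, because the column is unnamed; whether the control experiment listed in the labels was used is not stated. The −log10 q value is the authors' too. The summit offset in bp was deposited by the authors and placed each summit.

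Starts came from GENCODE M21. A peak counted with an overlap of at least 1 bp. Python 3.11.15, numpy 2.4.6, pandas 2.3.3, matplotlib 3.10.9 and bedtools 2.31.1 were used, and joins and overlaps were tested on simulated data. The members and gene lists were chosen with earlier results of these data known. All 10 genes are named, with, of the other lists, those highest, widest or differing between lists; 1 gene that this rule names is not reported here. No test was made: values are described beside all genes. Alternatives were the other lists, −log10 q of at least 5, windows of 500 and 2000 bp, other starts, gaps of 0 and 3000 bp, other width shares and CpG bounds of 0.5 and 0.7.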

Additional observations from a re-analysis of the deposited data

How the results depend on the processing

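All 10 genes stayed marked under every alternative run. The median fold enrichment of the members ranged from 11.9 to 17.2 over the single pool lists. The median width ranged from 3238.5 to 3542 bp over them and was 3502 bp in the pseudoreplicated list. The number of members in the widest 5% changed with the joining of peaks, to 5 with a gap of 0 bp and 1 with a gap of 3000 bp. It was 4 with −log10 q of at least 5, and 4 with the longest transcript only. With the widest 2% it was 0 and with the widest 10% it was 5. With a CpG bound of 0.7, 4 members were high-CpG, and with a bound of 0.5, 8 were. With the longest transcript only, the median fold enrichment was 14.2, below the 15.2 of all marked genes; of the 10 values only that of Ctnna3 changed, from 18.6 to the 7.86 of its second start. The cause of the other changes was not tested. No paired analysis was possible because both technical replicates of a pool share 1 alignment and the lists hold no values per library. Read depth is unknown, and with 2 pools no permutation test could pass a threshold.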
